A study of Macaca fascicularis with 15 samples.

Results

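RNA sequencing of the cynomolgus monkey (Macaca fascicularis) gave 2 libraries of whole eye and 2 of whole retina, and these 4 libraries were compared with each other over all genes. They were taken by the tissue in their labels and are 4 of the 11 libraries with a table, in a series of 15 samples. The other 7 tables are 4 of central and 3 of peripheral retina, and 4 further records, which repeat the names of these eyes and retinas, were not analysed here. All animals are labelled wild type, with no treatment, age or sex in the labels used here. Each sample came from 1 eye, its tissue was kept in RNAlater, a solution that preserves RNA, and the replicates are called biological in the labels, with no animal named. Eyes and retinas are numbered 1 and 2, and an equal number does not say that an eye and a retina belong to 1 animal. The comparison asks what the whole organ holds in RNA that the libraries labelled whole retina do not.

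The retina is the neural layer at the back of the eye, where rods and cones turn light into signals that bipolar, amacrine and ganglion cells carry toward the optic nerve. The pigment epithelium behind it renews the visual pigment and takes up shed photoreceptor tips. The rest of the eye includes the cornea and conjunctiva at the surface, the lens with its crystallin-packed fibres, the pigmented and vascular uvea (iris, ciliary body and choroid), the tough stroma of the sclera, and, if left attached, the muscles that move the eye and the optic nerve. Whole-tissue RNA gives 1 level per gene for all cells together, so fewer cells of a type and less RNA per cell cannot be told apart.

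The tables give normalized values without a stated unit, so the sequencing depth is unknown. Of 12995 genes, between 171 and 226 were listed at 0 in a whole eye or whole retina library. Across the 11933 genes tested, which are not independent replicates, log2 values correlated at 0.969 between the eyes, 0.953 between the retinas and 0.914 to 0.955 between an eye and a retina. Whole retina 1 stood apart: 345 genes (2.89%) were over 2 times as high there as in any of the other 3 libraries, against 102 (0.855%) in whole eye 1, 29 (0.243%) in whole eye 2 and 16 (0.134%) in whole retina 2. Some gene names are the start of another name, and values of such genes appear exchanged between names in some libraries; each is marked below as having a shared name start. Values plus 1 differed by over 4-fold between the 2 retinas in 56 of 2426 such genes (2.31%) and in 66 of 9507 others (0.694%).

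Among the gene lists, those of the ocular surface, the lens and skeletal muscle held the most genes that were lower in whole retina than in whole eye. Genes of retinal neurons, retinal glia and pigment epithelium gave almost no calls. In all, 251 of the 11933 genes were lower in whole retina (2.10%) and 20 were higher (0.168%; 2.27% in either direction), by limma on log2(value + 1) with Benjamini-Hochberg adjustment and a threshold of 0.05. Differences below are whole retina minus whole eye on that log2 scale, which understates the change of low genes, with the standard error (SE) of the fit and n = 2 in each group. The median difference over all genes tested was −0.015, with quartiles of −0.18 and 0.16. Of the 251 lower genes, 108 differed by more than 4-fold on that scale of value + 1, against 2 of the 20 higher genes. Folds of the values themselves can be larger. Both eyes lay above both retinas in 17.6% of genes tested, and both retinas above both eyes in 14.0%.

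Of the 251 lower genes, 139 also passed in the fit of the 4 libraries alone and with each of the 4 left out in turn, against 3 of the 20 higher genes. The fit of the 4 libraries alone called 158 genes lower and 12 higher, and the fit with all 11 libraries takes most of its variance estimate from the 7 regional ones. Higher calls depended most on single libraries: 461 genes were higher without whole retina 2, 69 without whole eye 1 and 13 without whole eye 2. With 2 libraries against 2, a permutation test of a single gene could not pass the threshold, so all p-values below come from limma.

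**Figure D1:**
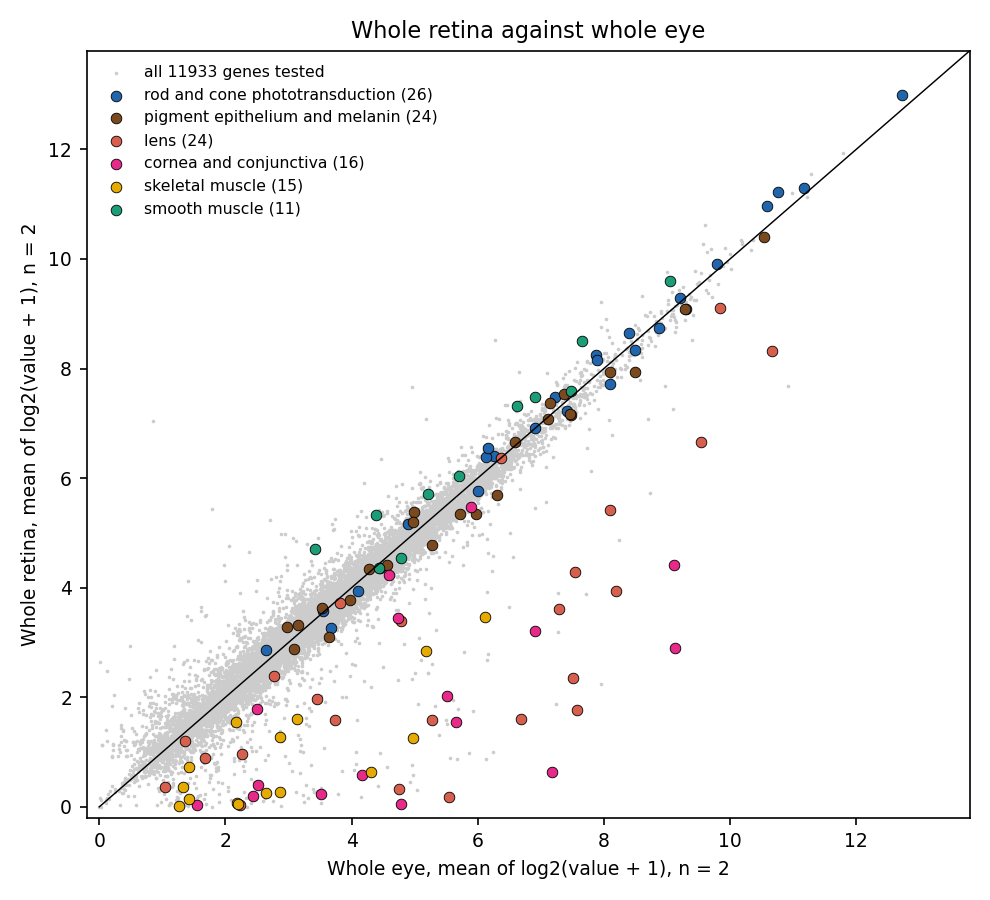
Mean log2(value + 1) of the 2 whole retinas (vertical) against the 2 whole eyes (horizontal) for 11933 genes; coloured points are members of the named lists and the line marks equal levels. Rod, cone, pigment epithelium and smooth muscle genes lie near the line, and many lens, corneal and skeletal muscle genes lie far below it.

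Surface epithelium had the most negative median of the 49 lists. Of 16 tested genes of the corneal and conjunctival epithelium, 14 were lower in whole retina and none was higher, with a median difference of −3.38 beside −0.015 over all genes. All 16 lay higher in both eyes than in both retinas, beside 17.6% of all genes tested. Of the 14, 12 passed in all fits named above. CDH1 (shared name start) and DSG3 did not pass in the fit of the 4 libraries alone (limma adjusted p = 0.39 and 0.0869).

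KRT12, the keratin that defines corneal epithelium, was 569.92 and 542.44 in the eyes and 0.93 and 28.21 in the retinas. Both eyes were far above both retinas, and retina 2 was well above retina 1. The difference was −6.21 ± 0.94 (SE; limma adjusted p = 0.00301). KRT4, a keratin of moist surface epithelia such as the conjunctiva, was 167.58 and 124.56 in the eyes against 0.10 and 1.21 in the retinas. The retinas were close to 0 beside the eyes, with a difference of −6.54 ± 0.26 (limma adjusted p = 1.09e-07), the largest of all genes that met the naming rule.

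ALDH3A1, an aldehyde dehydrogenase that makes up much of the soluble protein of the cornea, was 668.35 and 452.22 in the eyes and 12.37 and 33.20 in the retinas (difference −4.69 ± 0.41; limma adjusted p = 3.17e-05). KRT14, a keratin of basal epithelial cells, was 38.13 and 18.27 in the eyes and 0.02 and 0.06 in the retinas. In both genes the lower eye was still far above the higher retina. Named after their values were seen, AQP5, a water channel of corneal epithelium and glands, fell by 3.70 and TP63, the transcription factor of epithelial stem cells, fell by 2.25. Of the 14 lower genes, 10 were higher in retina 2 than in retina 1. The summed level of the 16 genes was 1829 and 1490 in the eyes, 97.8 and 157 in the retinas, and 53.7 to 63.3 in the regional retina libraries.

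The 2 members that did not pass have roles in the retina or in other cells. PAX6, the master regulator of eye development, which both surface epithelium and retinal interneurons express, was 58.26 and 59.19 in the eyes and 41.32 and 45.93 in the retinas (limma adjusted p = 0.22). JUP, a junction protein, was 23.10 and 23.17 against 21.04 and 14.91 (limma adjusted p = 0.58). Goblet cell and gland genes followed for 2 of 5 members: AGR2, a secretory cell protein, was 18.44 and 12.97 in the eyes and 0.17 and 1.17 in the retinas, and PIGR, the receptor that carries antibodies across mucosal epithelia, was 8.44 and 9.44 against 0.01 and 0.23. Both were lower in whole retina (limma adjusted p = 8.06e-06 and 2.29e-07). LYZ (lysozyme, shared name start), AZGP1 and LCN2 did not pass; the groups overlapped in LYZ and LCN2, and both eyes were above both retinas in AZGP1.

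Of the 10 largest differences among lower genes by the naming rule, 3 are in no list. ADH7, an alcohol dehydrogenase of surface epithelia, was 57.66 and 96.43 in the eyes and 0.21 and 2.28 in the retinas. ANXA8, an annexin of stratified epithelia, was 50.68 and 48.82 against 0.19 and 1.79. TPSB2, a mast cell tryptase, was 75.83 and 12.91 against 0.20 and 0.29, and here the eyes themselves are far apart. The limma adjusted p-values were 8.06e-06, 1.95e-06 and 0.000662.

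In all, 198 of the 251 lower genes are in none of the 49 lists, and 52 of the 251 are unnamed loci. The genes that follow are in no list and were chosen after their values were seen, so they do not stand for the rest. SFN, the epithelial 14-3-3 protein stratifin, was 21.94 and 23.51 in the eyes and 0.39 and 0.95 in the retinas. GJB2, the gap junction protein connexin of surface epithelia, was 49.50 and 46.31 against 2.66 and 3.06. SERPINB5, the epithelial protein maspin, was 7.26 and 9.96 against 0.01 and 0.13. KLF5, a transcription factor of epithelial proliferation, was lower as well (12.72 and 12.10 against 2.49 and 1.56). LAMB3, a chain of the laminin that anchors epithelium to its basement membrane, was 2.74 and 2.65 against 0.40 and 0.33. Both eyes were above both retinas in these genes.

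Of 21 genes of the BMP, Wnt and TGF-beta pathway, 2 were lower in whole retina and none was higher, with a median of −0.04. TGFBI, a matrix protein abundant in the cornea, was 328.26 and 278.43 in the eyes and 23.82 and 33.92 in the retinas. The eyes exceeded the retinas by 10.5-fold (difference −3.37 ± 0.20; limma adjusted p = 1.35e-06). The other lower gene, the ligand WNT2 (shared name start), was at most 1.17 in every whole library. The ligands BMP4 and TGFB2 and the Wnt antagonists WIF1 and FRZB did not pass: WIF1 was 454.88 and 485.77 in the eyes and 417.32 and 502.67 in the retinas, and the ranges overlap. Named after their values were seen, the ligands WNT7A (8.39 and 6.41 against 0.73 and 0.45) and WNT4 (5.43 and 3.85 against 0.48 and 0.77) are in no list and were lower.

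**Figure D2:**
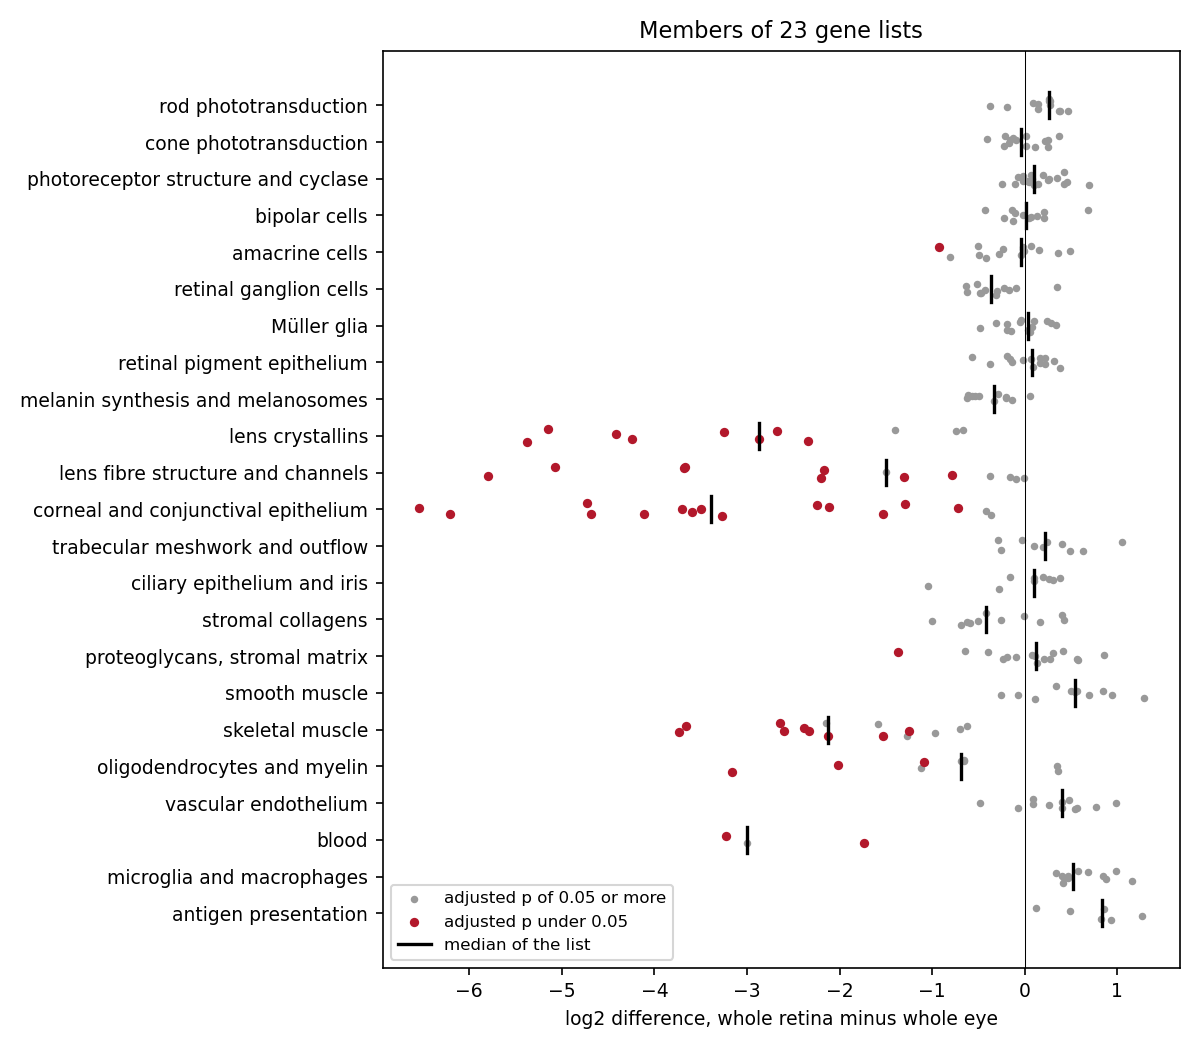
Differences (whole retina minus whole eye, log2) of the members of 23 gene lists, with 1 point per gene, red where limma's adjusted p is under 0.05 and a bar at the list's median. The lens, corneal and skeletal muscle lists reach far to the left, and the lists of retinal cell types and pigment epithelium centre near 0.

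Genes of the lens were lower in 2 lists. Of 11 tested crystallins, the proteins that give the lens its refractive power, 8 were lower in whole retina, with a median of −2.88, and all 8 passed in the fit of the 4 libraries and with each library left out. All 11 lay higher in both eyes, beside 17.6% of all genes tested. Of 13 genes of lens fibre structure and channels, 8 were lower (median −1.5) and 7 of these passed in all fits. None was higher in either list.

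BFSP1, a subunit of the beaded filament that only lens fibres are known to build, was 190.42 and 188.63 in the eyes and 2.40 and 2.44 in the retinas. Replicates almost coincide in both groups, and the difference was −5.80 ± 0.14 (limma adjusted p = 2.64e-09). BFSP2, its partner in the filament, was 102.81 and 100.47 against 2.5 and 1.66. LIM2, a fibre membrane protein, was 159.43 and 151.65 against 15.04 and 8.36, and the water channel MIP (shared name start), the main membrane protein of lens fibres, was 32.16 and 44.00 against 3.10 and 1.22. All 4 lay well apart between the groups. GJA3, a connexin that couples lens fibres, was lower by 1.30 on the log2 scale.

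The crystallins differed among themselves in how much of the eye's level the retina held. The gamma crystallins CRYGB and CRYGD were among the lowest. CRYGB was 69.34 and 30.30 in the eyes and 0.11 and 0.15 in the retinas, and CRYGD was 256.30 and 126.77 against 4.24 and 3.99. In both genes eye 1 was well above eye 2, and the retinas are alike. The mean of the retinas was 0.261% of that of the eyes for CRYGB and 2.15% for CRYGD. CRYBA4, a beta crystallin, fell by 4.25 (270.55 and 314.74 against 16.66 and 12.49).

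CRYBB2, the most abundant lens beta crystallin, was 1576.5 and 1685.2 in the eyes and 405.65 and 251.89 in the retinas, so that the retinas still held 20.2% of the eye's mean (difference −2.35 ± 0.38; limma adjusted p = 0.0052, and 0.148 with a pseudocount of 0.1). CRYGS was 666.37 and 829.05 against 100.22 and 100.60. In the regional retina libraries CRYBB2 was 0.34 to 2.58, far below both whole retinas. CRYAB, a small heat shock protein that many tissues make, was 771.68 and 1090.8 in the eyes and 530.00 and 570.45 in the retinas, and did not pass (limma adjusted p = 0.21). The summed crystallin level was 4144 and 4572 in the eyes, 1135 and 1004 in the retinas and 40.1 to 120.5 in the regional libraries. Both whole retinas thus lay between the eyes and the regions, with CRYAB and CRYBB2 the largest parts of their sums. The lens fibre list summed to 609.1 and 630.6 in the eyes and 126.5 and 127.8 in the retinas. These retina sums lay within the regional range of 103.5 to 133.2. In 8 of its 13 genes all 4 whole libraries were above all 7 regional ones, beside 24.7% of all genes tested.

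**Figure D3:**
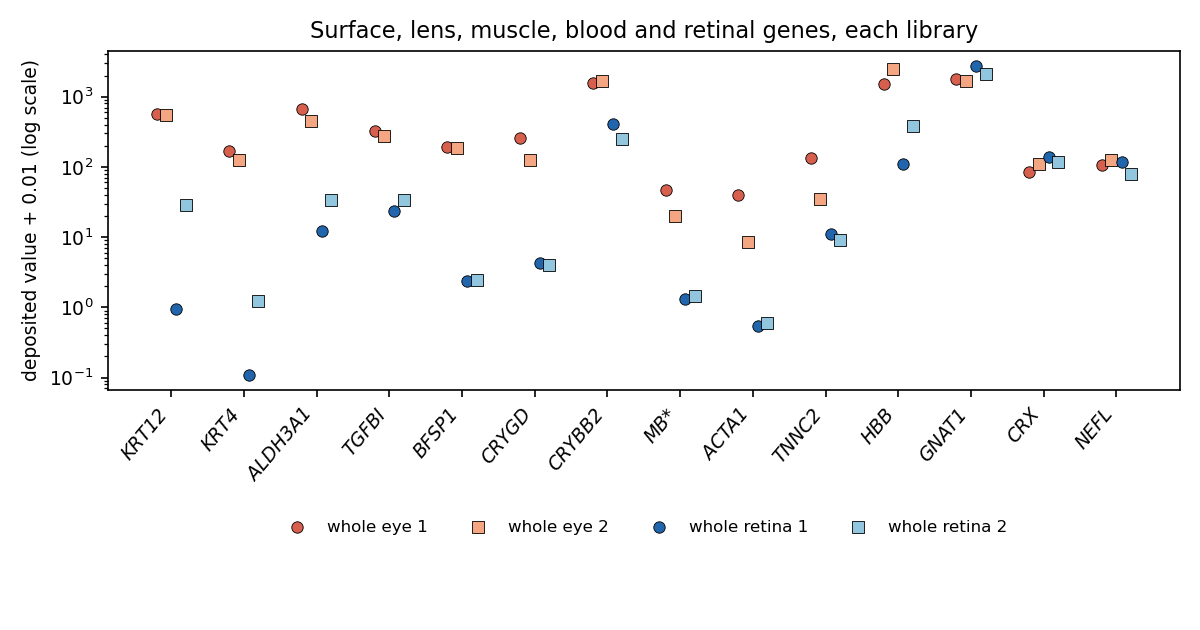
Deposited values plus 0.01, on a log axis, in each whole eye and whole retina library for genes of surface epithelium, lens, skeletal muscle, blood and retina; an asterisk marks a shared name start. The first 11 genes are higher in both eyes, while the retinas are higher for GNAT1 and CRX and the groups overlap for NEFL.

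Skeletal muscle genes were lower in whole retina for 9 of 15 tested members, and the eyes themselves differed in this list. The median difference was −2.13, none was higher, and 14 of the 15 lay higher in both eyes, beside 17.6% of all genes tested. Of the 9, 5 passed in all fits. All 9 were higher in eye 1 than in eye 2, by a median of 3.66 times. The summed level of the list was 374 and 102 in the eyes and 27.7 and 22.8 in the retinas, against 30.8 to 41.5 in the regional libraries. The amount of muscle attached to each eye is not in the labels, and its part in the result was not tested.

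MB (myoglobin, shared name start), the oxygen store of muscle, was 46.77 and 19.86 in the eyes and 1.31 and 1.45 in the retinas (difference −3.73 ± 0.28; limma adjusted p = 8.89e-06). ACTA1, skeletal muscle actin, was 39.77 and 8.52 against 0.53 and 0.58 (limma adjusted p = 0.00144). Eye 1 exceeded eye 2 in both genes, and both eyes were far above the retinas. MYH1 (shared name start), a fast myosin, was 10.18 and 3.79 against 0.15 and 0.26, and MYOZ1, a protein of the contractile unit, was 8.04 and 3.28 against 0.27 and 0.12. MYH13, the extraocular muscle myosin (shared name start), was 2.45 and 0.67 against 0.01 and 0.01, but did not pass in the fit of the 4 libraries alone (limma adjusted p = 0.231). TCAP, MYH2 and TNNC2 lost the call in that fit as well (limma adjusted p = 0.207, 0.201 and 0.0688), and MYH13, TCAP and MYH2 also lost it without whole retina 1.

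Smooth muscle genes, by contrast, did not pass for any of 11 members, and their median was 0.54. MYH11 (shared name start), the myosin that defines smooth muscle, was 259.14 and 156.31 in the eyes and 298.63 and 440.54 in the retinas. Both retinas lay above both eyes (difference 0.85 ± 0.23; limma adjusted p = 0.133). MYH11 passed without whole eye 1 (1.21; limma adjusted p = 0.0231) and after quantile normalization (0.0462), and its difference was 0.48 without whole eye 2. ACTA2, smooth muscle actin, was 817.36 and 342.66 against 723.11 and 819.60, with overlapping ranges. The difference between the 2 muscle lists was not tested.

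Blood and myelin genes gave fewer calls. Of 3 tested blood genes, 2 were lower: HBB, a subunit of haemoglobin, was 1494.5 and 2492.0 in the eyes and 109.71 and 383.01 in the retinas, and ALAS2, the haem enzyme of red cell precursors, was 2.95 and 3.24 against 0.22 and 0.24. HBA2, the other haemoglobin subunit, was 337.98 and 535.22 against 28.59 and 95.18 (limma adjusted p = 0.0508, and 0.029 with the 4 libraries alone). Globin values were higher in retina 2 than in retina 1. HBB did not pass without whole eye 1, whole eye 2 or whole retina 1 (limma adjusted p up to 0.276), and ALAS2 passed in every fit.

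Of 9 genes of oligodendrocytes and myelin, the insulation of the optic nerve, 3 were lower and none higher, with a median of −0.69. MAL (shared name start), a membrane protein of myelin and of epithelia, was 30.08 and 34.18 in the eyes and 2.05 and 3.45 in the retinas. MOBP, a myelin protein of oligodendrocytes, was 13.04 and 3.19 against 0.80 and 1.00. The eyes lay above the retinas in MAL and MOBP, and MOBP did not pass in the fit of the 4 libraries alone (limma adjusted p = 0.171) or without whole retina 1 (0.11). Of 6 genes of Schwann cells, which insulate peripheral nerves, 1 was lower and 1 was higher. The higher one was the cadherin CDH19 (shared name start), at 1.33 and 1.32 in the eyes and 2.95 and 3.14 in the retinas, which did not pass in the fit of the 4 libraries alone (limma adjusted p = 0.231).

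Whole retina was not called richer than the whole eye in any listed photoreceptor gene. None of 12 rod, 14 cone and 19 structural photoreceptor genes passed in either direction, and the medians were 0.27, −0.04 and 0.10. None of 11 photoreceptor transcription factors passed either (median 0.20); 5 of these were lower in all 4 whole libraries than in all 7 regional ones, as were 10.2% of all genes tested. A p that misses the threshold does not show equal levels, so the intervals are given.

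GNAT1, the rod transducin that relays the light signal inside the cell, was 1794.4 and 1668.4 in the eyes and 2715.6 and 2095.7 in the retinas. The retinas lay above the eyes, with a difference of 0.46 (95% interval −0.20 to 1.13; limma adjusted p = 0.64). CRX, the transcription factor that drives photoreceptor genes, was 84.67 and 110.38 against 137.20 and 119.06 (0.40, interval −0.01 to 0.81).

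Of the rod genes, 10 of 12 had a positive difference, and 8 were higher in both retinas, beside 14.0% of all genes tested. This was not particular to rods: 6 of 11 smooth muscle genes and 7 of 12 endothelial genes were also higher in both retinas. In each of those lists 1 gene was higher in both eyes. RBP3, the retinoid carrier between photoreceptors and pigment epithelium, had the largest difference of the structural list. It was 774.45 and 744.73 in the eyes and 1404.6 and 1080.3 in the retinas (0.70, limma adjusted p = 0.407). Its interval, 0.06 to 1.33, lies above 0, but the difference did not pass over all genes. Cone genes lay on both sides: OPN1SW, the blue cone opsin, was 73.45 and 54.13 in the eyes and 47.81 and 60.32 in the retinas, which overlap.

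Inner retinal cells gave 1 call. Of 12 bipolar cell genes and 5 horizontal cell genes none passed (medians 0.01 and −0.10). GNG13, a G protein subunit of ON bipolar cells, came closest, at 71.69 and 62.82 in the eyes and 102.32 and 113.94 in the retinas (0.68 ± 0.17; limma adjusted p = 0.0862). Of 15 amacrine cell genes, TFAP2C, an AP-2 transcription factor that skin epithelium also makes, was lower: 3.53 and 4.29 against 1.66 and 1.48. It did not pass in the fit of the 4 libraries alone (limma adjusted p = 0.154).

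None of 12 ganglion cell genes passed, although 11 had a negative difference (median −0.37). In 6 of the 12 both retinas were lower than both eyes, as in 17.6% of all genes tested. Ganglion cells send their axons into the optic nerve. NEFL, their neurofilament light chain, was 105.49 and 123.93 in the eyes and 118.39 and 80.18 in the retinas, and the ranges overlap. STMN2, a regulator of axonal microtubules, was 104.18 and 127.21 against 81.23 and 68.42 (−0.62, interval −1.16 to −0.08; limma adjusted p = 0.386). Synaptic vesicle fusion (12 genes), transmitter receptors (17) and voltage-gated channels (14) gave no call, with medians of 0.00, −0.22 and −0.05.

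Müller glia, the radial support cells of the retina, gave none of 15 genes past the threshold (median 0.04). RLBP1, their retinaldehyde-binding protein, which pigment epithelium also makes, was 582.41 and 667.92 in the eyes and 561.09 and 527.95 in the retinas. Both retinas are slightly below both eyes (−0.20, interval −0.60 to 0.21). GLUL, the enzyme that recycles glutamate, was 687.86 and 760.77 against 781.61 and 720.82, and overlaps.

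Pigment epithelium genes were high in both tissues. None of 14 pigment epithelium genes and none of 13 genes of the visual cycle passed (medians 0.08 and 0.16). RPE65 (shared name start), the isomerase of the visual cycle, was 260.90 and 285.76 in the eyes and 223.79 and 267.92 in the retinas (−0.16, interval −0.53 to 0.22). TTR, the thyroid hormone and retinol carrier transthyretin, was 1392.7 and 1591.3 against 1421.9 and 1289.1. The groups overlap in both genes.

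Against the regional libraries these levels are high. RPE65 was 4.48 to 7.48 and TTR 33.81 to 345.20 in the 7 libraries of central and peripheral retina; the gene RPE, with which RPE65 shares its name start, was 8.35 to 100.45 there and 15.40 to 22.24 in the 4 whole libraries. Of the 14 pigment epithelium genes, 11 were higher in all 4 whole libraries than in all 7 regional ones, as were 24.7% of all genes tested. Whether the tables were scaled together is not stated, so this is given without a test.

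Melanin genes, which pigment epithelium and the melanocytes of the uvea both use, gave no call among 11, with a median of −0.33. Of the 11, 8 were higher in both eyes, beside 17.6% of all genes tested. TYR (tyrosinase, shared name start), which starts melanin synthesis, was 69.35 and 54.82 in the eyes and 40.10 and 39.13 in the retinas (−0.63, interval −1.07 to −0.19; limma adjusted p = 0.228). MLANA, a melanosome protein, was 203.46 and 152.36 against 142.32 and 145.18, and at most 4.19 in the regional libraries. Both whole retinas thus sit nearer to the eyes than to the regions.

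Lists of collagens, outflow tissue, ciliary epithelium, vitreous and vessels gave no calls. None of 11 stromal collagens passed (median −0.42), and none of 10 genes of the trabecular meshwork, the outflow tissue at the base of the cornea (0.22), 9 of the ciliary epithelium and iris (0.10), 7 of the vitreous matrix (0.13), 12 of vascular endothelium (0.41) or 7 of pericytes (0.15). COL1A1, the main collagen chain of sclera and cornea, was 72.15 and 30.69 in the eyes and 28.75 and 18.32 in the retinas. The eyes are above the retinas but far apart themselves (−1.01, interval −1.72 to −0.29; limma adjusted p = 0.237). COL1A1 passed without whole eye 2 (−1.61; limma adjusted p = 0.00571) and with the replicate number as a block (0.00988), and its difference was −0.40 without whole eye 1. COL1A2, its partner chain, was 152.73 and 87.69 against 111.25 and 83.87, with overlap.

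MYOC (myocilin), a protein of the trabecular meshwork linked to glaucoma, was 141.42 and 193.87 in the eyes and 215.30 and 168.15 in the retinas. OPTC (opticin), a vitreous protein made by the ciliary epithelium, was 455.80 and 394.38 against 500.91 and 545.94. Neither gene was lower in the retinas, where surface and lens genes were. PECAM1, an adhesion protein of endothelium, was 6.57 and 6.22 against 12.65 and 6.04, with only retina 1 apart. The difference of PECAM1 was 0.88 without whole retina 2. PECAM1 does not stand for its list: both retinas lay above both eyes in 7 of the 12 endothelial genes, beside 14.0% of all genes tested.

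Low levels of these genes mark the regional libraries. MYOC was at most 1.77 there, COL1A2 at most 1.26 and MYH11 at most 1.15. Of the 11 smooth muscle genes 10, of the 11 collagens 9 and of the 10 trabecular genes 9 were higher in all 4 whole libraries than in all 7 regional ones, beside 24.7% of all genes. The libraries labelled whole retina hold photoreceptor, neuronal and glial markers, while RPE65, MYH11, COL1A2 and MYOC, markers of pigment epithelium, smooth muscle, stroma and outflow tissue, are also present in both. Which tissue was taken with the retinas is not in the labels used here, and its part in these values was not tested.

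**Figure D4:**
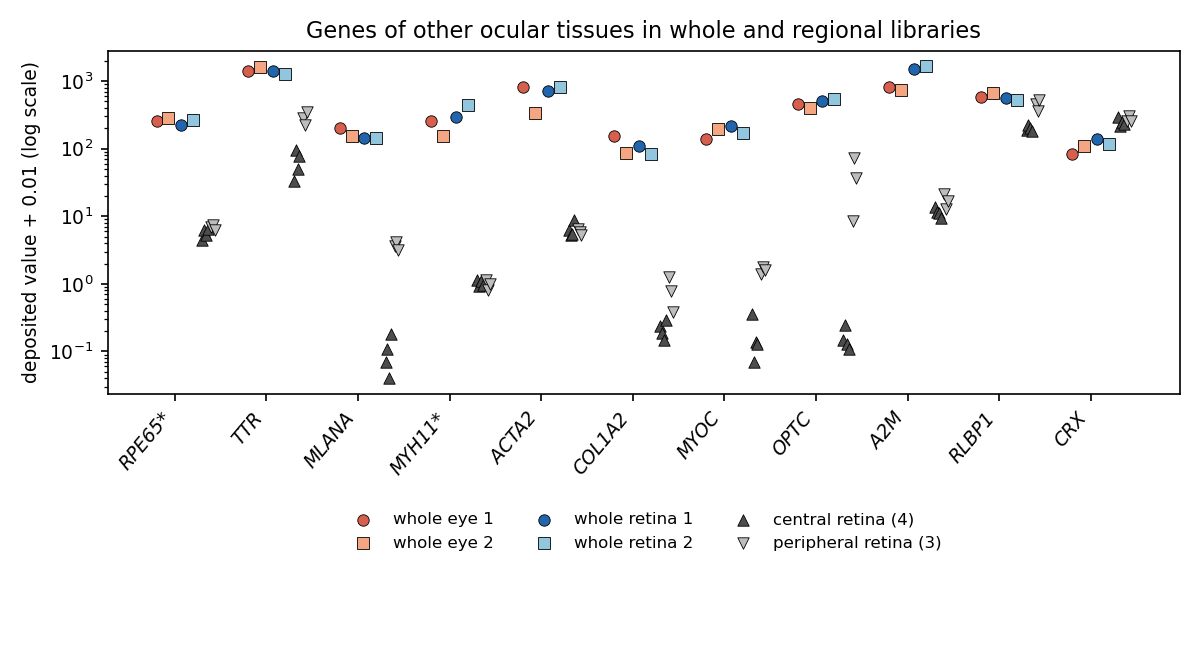
Deposited values plus 0.01, on a log axis, in the 4 whole libraries and in central (4) and peripheral (3) retina; an asterisk marks a shared name start. For RPE65, TTR, MLANA, MYH11, ACTA2, COL1A2, MYOC, OPTC and A2M both whole retinas lie above every regional library, while CRX is lower in the whole libraries.

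Among the matrix lists outside collagen, single members were lower. MFAP5, a glycoprotein of elastic microfibrils, was 2.26 and 1.71 in the eyes and 0.21 and 0.10 in the retinas (limma adjusted p = 0.000321), the 1 call of 16 proteoglycan and stromal matrix genes and of 12 fibroblast genes. DCN (decorin), the main small proteoglycan of stroma, was 265.69 and 215.14 against 116.48 and 200.97 and did not pass. LOX (shared name start), which cross-links collagen, was the 1 call of 15 matrix proteases and inhibitors (2.94 and 1.95 against 1.09 and 0.67) and was lost in the fit of the 4 libraries (limma adjusted p = 0.31). Of 6 limb and mesoderm transcription factors, OSR2 was lower in every fit (9.91 and 7.01 against 0.05 and 0.29), and TBX15 only in some (2.24 and 0.70 against 0.11 and 0.17; limma adjusted p = 0.0464, and 0.36 with the 4 libraries alone). Their relatives PRRX1 and TWIST1 overlapped between the groups.

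Housekeeping lists gave no calls. None of 13 glycolysis genes, 24 nuclear-encoded genes of oxidative phosphorylation, 20 ribosomal protein genes or 8 heat shock genes passed, with medians of −0.03, −0.08, −0.16 and −0.14. Eye field transcription factors, which pattern the retina and lens, gave none of 16 (median −0.01). Adipocyte genes gave none of 3, although FABP4, a fatty acid carrier of fat cells and vessels, passed in the fit of the 4 libraries (6.04 and 7.25 against 2.38 and 1.82).

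Few genes were higher in whole retina, and 3 of the 20, CXCL13, AURKC and EGR1, also passed with the 4 libraries alone and with each of these left out. EGR1, a transcription factor that responds within minutes to stimulation, was 5.54 and 8.39 in the eyes and 19.90 and 20.74 in the retinas, 2.92-fold higher on average. The retinas are close to each other, and neither eye comes near them (difference 1.44 ± 0.23; limma adjusted p = 0.00492). With the 4 libraries alone the limma adjusted p of EGR1 was 0.0327, and without whole eye 1 its difference fell to 1.18. EGR1 was the 1 call of 8 immediate early genes (median 0.14). FOS (shared name start) was 6.75 and 8.15 against 11.84 and 14.25 and NR4A1 was 9.72 and 5.31 against 12.12 and 13.42. FOS and NR4A1 did not pass (limma adjusted p = 0.382 and 0.386). Both retinas were above both eyes in EGR1, FOS and NR4A1, 3 of the 8 genes, beside 14.0% of all genes tested. Another 3, ATF3 (−0.19), JUN (shared name start, −0.23) and DUSP1 (shared name start, −0.10), had negative differences.

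CXCL13 (shared name start), the chemokine that draws B cells into lymphoid tissue, was 0.44 and 1.24 in the eyes and 48.43 and 346.40 in the retinas. It had the largest positive difference, 6.19 ± 0.63 (limma adjusted p = 0.000116), with the retinas themselves far apart, and it was listed at 0 in all 7 regional libraries. AURKC, a kinase of cell division, was 0.21 and 0.13 against 4.41 and 2.12. The limma adjusted p of AURKC was 0.0068, and 0.0887 with a pseudocount of 0.1.

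Of the 20 higher genes, 2 (EGR1 and CDH19) are in any of the 49 lists. MAMU-DRB1 and MAMU-DRB5, class II antigen-presenting genes that are near-identical and whose reads cannot be split with certainty, were 5.22 and 4.12 and 0.48 and 3.76 in the eyes and 19.58 and 14.04 and 20.25 and 13.28 in the retinas. A2M, a protease inhibitor of plasma and vessel cells, was 832.54 and 728.66 against 1506.4 and 1653.9 (2.02-fold; limma adjusted p = 0.0325). It was 9.58 to 21.53 in the regional libraries. ALDH1A2, an enzyme that makes retinoic acid, was 7.53 and 6.32 against 14.11 and 12.98, while ALDH1A1, another such enzyme, was lower in the retinas (264.54 and 275.42 against 109.53 and 159.20). Neither passed in the fit of the 4 libraries alone (limma adjusted p = 0.196 and 0.149).

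The remaining 13 were TESC, RNASE1, CD97, GPR183, THBS4 and CDH19 (all with a shared name start), P2RY6, WISP1, SERPINA5, IHH, FCGR2A and 2 unnamed loci. RNASE1, a ribonuclease of endothelium, was 139.76 and 70.42 in the eyes and 265.30 and 222.95 in the retinas. IHH, a hedgehog ligand that choroidal vessels are known to make, was 1.12 and 0.79 against 2.19 and 2.23. P2RY6, a nucleotide receptor of macrophages and microglia, was 0.99 and 1.31 against 5.45 and 3.11. Eyes and retinas do not overlap in these 3. A2M did not pass with any 1 of the 4 libraries left out, and of the 20 higher genes 8 also passed without whole retina 1, and 18 lay above all 7 regional libraries in both retinas.

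Immune lists held many genes that were highest in whole retina 1. Of 12 microglia and macrophage genes 4, of 6 genes of T, B, NK and mast cells 3, of 8 complement genes 3 and of 6 antigen presentation genes 5 were over 2 times as high there as in any other whole library, beside 2.89% of all genes tested. Lists of interferon-stimulated genes, leukocyte genes and chemokines were written after the values of retina 1 were seen, so their counts describe that choice and support nothing. Of 35 interferon-stimulated genes, which cells switch on in answer to viral or immune signals, 25 were over 2 times as high in retina 1 as in any other whole library, and of 21 leukocyte genes all 21 were. The summed level of the leukocyte genes was 118 and 108 in the eyes, 607 in retina 1 and 109 in retina 2. That of the interferon-stimulated genes was 625 and 388 in the eyes, 2134 in retina 1 and 476 in retina 2.

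**Figure D5:**
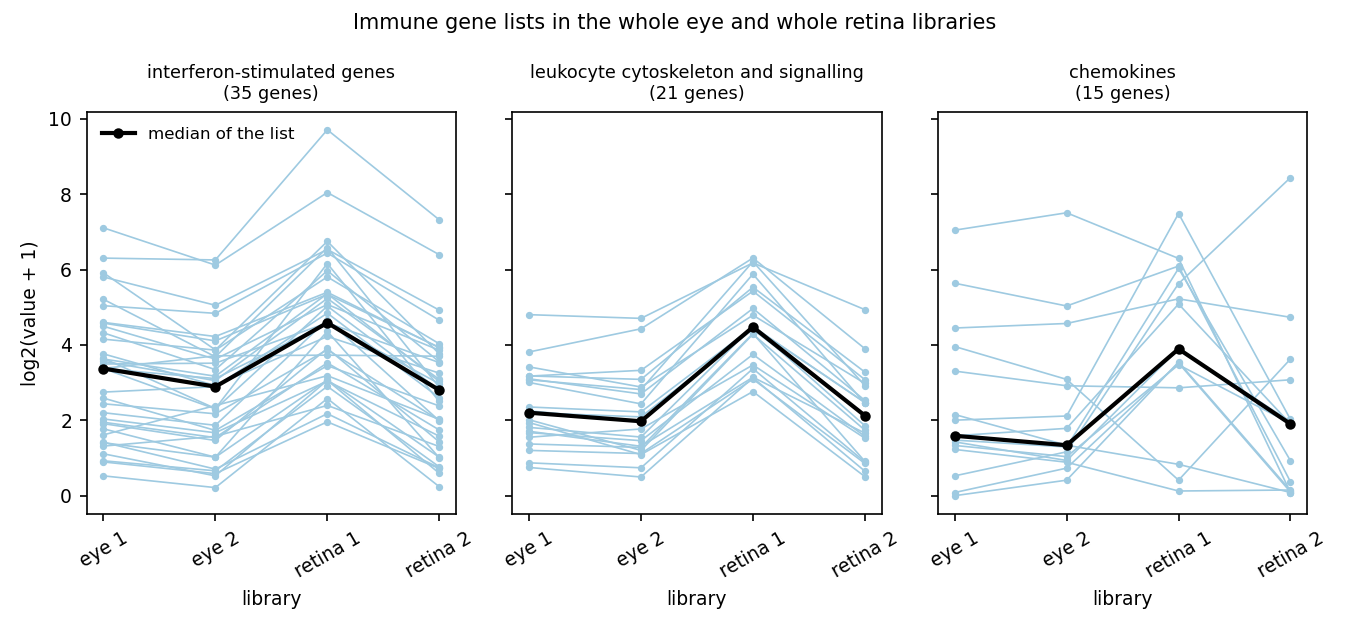
Values as log2(value + 1) in the 4 whole libraries for interferon-stimulated genes (35), leukocyte genes (21) and chemokines (15); each thin line joins the values of 1 gene and the thick line joins the list medians. Retina 1 is the highest library at the median of each list, and retina 2 lies near the eyes.

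CORO1A, an actin regulator of leukocytes, was 7.42 and 6.04 in the eyes, 73.06 in retina 1 and 6.58 in retina 2. CCL19, a chemokine that guides T cells and dendritic cells, was 3.01 and 3.33 in the eyes, 178.43 in retina 1 and 3.06 in retina 2. IFI6, an interferon-induced protein, was 78.00 and 75.40, 835.77 and 158.84 in the same order. Retina 1 is the highest in CORO1A, CCL19 and IFI6, and none passed in the comparison (limma adjusted p = 0.46, 0.442 and 0.153).

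Of the 15 chemokines 7 were over 2 times as high in retina 1, CXCL13 was higher and CCL13 and CXCL6 were lower in whole retina. Neither CCL13 nor CXCL6 passed in the fit of the 4 libraries alone. Of 12 microglia and macrophage genes none passed and all 12 had a positive difference (median 0.52). C1QC, a complement subunit that microglia make, was 36.43 and 17.10 in the eyes and 117.36 and 27.55 in the retinas. CD14, a receptor of monocytes, was 25.36 and 16.68 against 49.71 and 35 (limma adjusted p = 0.0587). Both retinas lay above both eyes in 7 of the 12 genes, CD14 among them but not C1QC, beside 14.0% of all genes tested. CD74, the chaperone of class II antigen presentation, was 283.07 and 215.90 in the eyes, 1149.5 in retina 1 and 307.69 in retina 2.

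Of 11 cell cycle genes none passed, 9 had a positive and 2 a negative difference, and 6 have a shared name start. In 5 of the 11 retina 1 was over 2 times as high as any other whole library, beside 2.89% of all genes tested. MKI67 (shared name start), a marker of dividing cells, was among these 5. Its values were low, at 0.22 and 0.25 in the eyes, 2.34 in retina 1 and 0.08 in retina 2. Without whole retina 1, 19 genes were higher and 236 lower in whole retina; of the 251 lower genes, 205 were among these. The state of the eye that gave retina 1 is not in the labels, and its part in these values was not tested.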

How the data were processed

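Each of the 11 tables lists 1 signal value per gene, used as deposited; the authors had normalized it, and neither the labels nor the file headers say how. The submitters' processing notes name GSNAP, an aligner, and HTSeq, a read counter. Versions, genome build and annotation were not found there, and coordinates are left out. Of 13083 entries per table, 27 without a number and 61 exact duplicates were dropped. This left 12995 genes under 12976 names, 9490 of them RefSeq symbols of the species.

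limma 3.58.1 (R 4.3.3) was fitted to log2(value + 1) of 11 libraries in 4 tissue groups, with a variance trend and two-sided tests. The 11933 genes tested reached a group mean of 1 or more in some tissue. Benjamini-Hochberg adjustment covered all of them, at a threshold of 0.05. On simulated tables of 11933 genes, 71% of 2-fold and 92% of 4-fold changes between whole retina and whole eye were recovered. Of the simulated calls, 3.55% were false. Changes were placed only in genes well above the lowest levels tested, with normal noise of 1 spread per gene in all groups. The rates may therefore not hold for low genes or where 1 library stands apart, as whole retina 1 does. The labels call the replicates biological but name no animal. The p-values therefore reflect the spread between these libraries alone, which may not be a spread between animals.

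The comparison and the gene lists were chosen with earlier results of these data known. The naming rule took 3 kinds of gene. The first were the 10 largest differences per direction that passed in the fits with all libraries, with the 4 libraries alone and with each of the 4 left out, without overlap between groups and with a higher group mean of 10 or more. Unnamed loci, repeated names and shared name starts were excluded there, and EGR1 was the 1 higher gene left. The second were up to 4 called members per list and direction and up to 2 that did not pass. The third were fixed markers, of which CD68 was not analysed here. Some genes are not reported here. Not every gene the rule allows is printed, and other names were chosen after their values were seen. Figures used numpy 2.4.6, pandas 2.3.3 and matplotlib 3.10.9.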

Additional observations from a re-analysis of the deposited data

How the results depend on the processing

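Of 14 alternatives, 13 were planned; leaving out names with a shared start was chosen after seeing the data. The count of lower genes, 251, moved by over 1.5 times in 2 of them: 158 with only the 4 compared libraries and 139 with a mean of at least 5 required in whole eye or whole retina. With 1 library left out it ran from 227 to 284. The count of higher genes, 20, was 7 with a pseudocount of 0.1, 51 with a pseudocount of 5, 32 with no filter on low values, 8 with a mean of at least 5, 44 after quantile normalization and 12 with only the 4 libraries, and ran from 13 to 461 with 1 library left out (the highest without whole retina 2). Eyes and retinas share only the numbers 1 and 2: the correlation of their differences was 0.19 over genes, and a replicate block gave 66 higher and 278 lower genes. At an unadjusted p under 0.05, 596 genes were higher and 669 lower.

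The alternatives were read for 62 called genes: the rule's top genes, called list members and some of the higher genes. Of these 62, 41 stayed past the threshold in every alternative in which they were tested. Some of the 62 are not printed here, and SFN, GJB2, WNT7A, ALDH1A1, RNASE1, P2RY6 and IHH were not among them. Uncalled fixed markers were read in the same way, and COL1A1 gained a call with the block and without whole eye 2. MYH11 gained a call after quantile normalization and without whole eye 1, PECAM1 without whole retina 2 and TYR with a pseudocount of 5. HBA2 and FABP4, which were not read in this way, passed with the 4 libraries alone. Among the uncalled fixed markers, the difference changed sign for NEFL without whole retina 2 (from −0.51 to 0.05 with 1 library left out). That of PECAM1 changed sign without whole retina 1 (from −0.07 to 0.88). The cause was not tested. No scaling moved the median of all genes by more than 0.051. With 2 libraries a group and unknown depth, small differences and low genes are the least certain, and tissue, animal and dissection cannot be told apart.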
